A study of Mus musculus with 60 samples.

Results

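The ubiquitin-specific proteases, or USPs, are the largest family of enzymes that take ubiquitin off proteins. Members were taken by symbol as every gene named Usp followed by digits and at most 1 letter, with Usp18 and Usp9y left out, which gave 46 of the 20423 genes in the deposited counts. Usp26 and Usp44 carry such symbols in the gene annotation and were not analysed here. The 46 genes lie across the genome, 4 of them on the X chromosome (Usp9x, Usp11, Usp27x and Usp51). Usp19 was set against its family after results of these libraries were known. The value taken here as the one it was chosen by is its higher level in PON2-deficient cerebellum, where it was the only member among the 6 genes that passed the test between genotypes. Its cerebellar difference between genotypes, with every refit of it below, is therefore a description and supports nothing else.

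Ubiquitin is a small protein that cells attach to other proteins, singly or in chains, to send them to the proteasome, to endosomes or to other fates. USPs are cysteine proteases that cut ubiquitin or its chains from their targets, and so oppose the ligases that put them there. In neurons they are known for tuning the turnover of receptors at synapses, of mitochondria and of chromatin marks. Usp19 has a form anchored in the membrane of the endoplasmic reticulum and is known for its part in the disposal and export of misfolded proteins and in muscle wasting.

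The study measured RNA from mouse cortex, striatum and cerebellum in animals with and without PON2, a paraoxonase of intracellular membranes that limits oxidative stress, to ask which transcripts change when it is missing. All mice were of the C57BL/6J background, bred by mating heterozygotes. Homozygous PON2-deficient mice were compared with wild-type littermates of the same sex. They were killed at 3 to 4 months of age after behavioural tests, so both genotypes share that handling. Each of the 12 groups of region, genotype and sex holds 5 libraries, 60 in all. The labels do not tie libraries of different regions to a mouse, and p-values below measure the spread between these libraries. In bulk tissue, fewer cells of a type and less RNA per cell cannot be told apart.

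Library totals ran from 26090000 to 28130000 estimated counts, to 4 significant digits. Pon2 served as the check of the labels: in every region all 10 PON2-deficient libraries lay below all 10 wild-type libraries (in cortex 2.34 to 5.62 against 50.2 to 58.9 CPM, the counts-per-million scale). Pon2 lies on chromosome 6 and Usp19 on chromosome 9. The members on chromosome 6, Usp5 and Usp39, lie 119.6 and 67.1 Mb from Pon2. The library striatum PON2-deficient male 5 stood apart. Its mean observation weight in the deposited weights was 0.0527 of the striatum median, and its log2 values fell by 0.251 per doubling of transcript length against the median of its region. Marker genes of cortical excitatory neurons, striatal projection neurons and cerebellar granule neurons were each highest in the labelled region, and no marker was at 0 throughout a region.

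In the GENCODE annotation Usp19 spans chr9:108490602-108502337 on the plus strand of GRCm38. By it Usp19 starts only 71 bases after the end of Lamb2, a laminin gene on the same strand. The RefSeq start of Usp19 lies farther on, at 108490676. The bases between the genes as annotated in GENCODE are shown because they separate that start of Usp19 from its neighbour. They come from the RefSeq start window of GRCm38.p6 at chr9:108490531-108490601, and capitals mark the GC box GGGCGG on either strand.
Usp19: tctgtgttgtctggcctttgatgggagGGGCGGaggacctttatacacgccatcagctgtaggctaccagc
The members whose levels followed Usp19 most closely across libraries were Usp49, Usp54 and Usp24, as described further on. For Usp49 (chr17:47630590-47630689, plus strand) and Usp24 (chr4:106316113-106316212, plus strand) the 100 bases just before the annotated start are set below for comparison.
Usp49: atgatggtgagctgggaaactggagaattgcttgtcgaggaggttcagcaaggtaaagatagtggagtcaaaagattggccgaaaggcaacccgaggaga
Usp24: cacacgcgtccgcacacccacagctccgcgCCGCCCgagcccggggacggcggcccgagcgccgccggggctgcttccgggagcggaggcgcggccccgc
The Usp24 stretch is 84.0% G and C and holds 1 GC box on the minus strand, the Usp19 stretch is 56.3% G and C, and the Usp49 stretch is 49.0% G and C with no such box. Start windows of 300 bases were matched for 36 of the 46 members. A GC box stood in 26 of these 36 windows (72.2%) and in 35.9% of all 27025 windows, and the ETS core CCGGAAG in 8 of 36 (22.2%) and 9.12% of all. The CCAAT box went the other way, with 8 of 36 windows (22.2%) against 37.9% of all. The median window held 65.7% G and C among members and 52.7% among all windows, so the compared sets are unlike in base content. The part of base content was not tested. Both strands were searched, and such a match is a description of letters.

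Usp19 was higher in PON2-deficient than in wild-type cortex in both sexes. In wild-type cortex the 5 female libraries read 120.4, 116, 114, 116 and 107 CPM and the 5 male libraries 113, 119.8, 115, 104 and 124 CPM. In PON2-deficient cortex the females read 139, 131, 136, 127 and 128 CPM and the males 125, 141, 140.2, 119 and 135 CPM. In females every PON2-deficient library lay above every wild-type library, and in males the ranges overlapped at 119 to 124 CPM. Over both sexes the means were 132 ± 7.44 against 115 ± 6.02 CPM (SD, n = 10 each), and 9 of 10 PON2-deficient libraries exceeded the highest wild-type library. The log2 change was 0.20 with a standard error of 0.04, a mean level 1.15-fold higher. In edgeR's quasi-likelihood test with Benjamini-Hochberg adjustment over 18972 genes this gave an adjusted p of 0.0548, just outside the threshold of 0.05. Taken by sex, the same test gave an adjusted p of 0.398 in females and 0.111 in males.

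In striatum the genotypes overlapped. Wild-type females read 96.6, 100.1, 104, 119 and 127 CPM and wild-type males 122, 117, 127, 123 and 100.2 CPM. PON2-deficient females read 127, 129.7, 131, 111 and 109 CPM and PON2-deficient males 112, 132, 146, 114 and 63.8 CPM. The lowest of these, 63.8 CPM, is the library that stood apart, and it lay below all 19 others of the region. The log2 change of Usp19 was 0.05 with a standard error of 0.11 (edgeR adjusted p = 0.995). Without that library the change was 0.13 (adjusted p = 0.609), and the remaining 9 PON2-deficient libraries averaged 124 ± 12.5 CPM against 114 ± 12.01 CPM in 10 wild-type libraries. Leaving out PON2-deficient male 3, the highest library, brought the change to -0.0022.

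Cerebellum held the values that chose Usp19. Wild-type females read 159.6, 151, 149, 143 and 144 CPM and wild-type males 153, 146, 157, 144 and 152 CPM. PON2-deficient females read 186, 186, 156, 177 and 184 CPM and PON2-deficient males 167, 169, 161, 186 and 193 CPM. Only the female library at 156 CPM fell within the wild-type range, and in males the ranges did not overlap. The means were 177 ± 12.5 against 149.7 ± 5.67 CPM (SD, n = 10 each), a log2 change of 0.24 with a standard error of 0.04. The change in the PON2-deficient animals was 0.25 in females and 0.22 in males. With 1 library left out at a time, Usp19 passed the cerebellar test in 13 of 20 fits (edgeR adjusted p from 0.00339 to 0.0674). These fits reuse the values that chose Usp19, so they show how the call depends on single libraries and are no support for it.

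**Figure D1:**
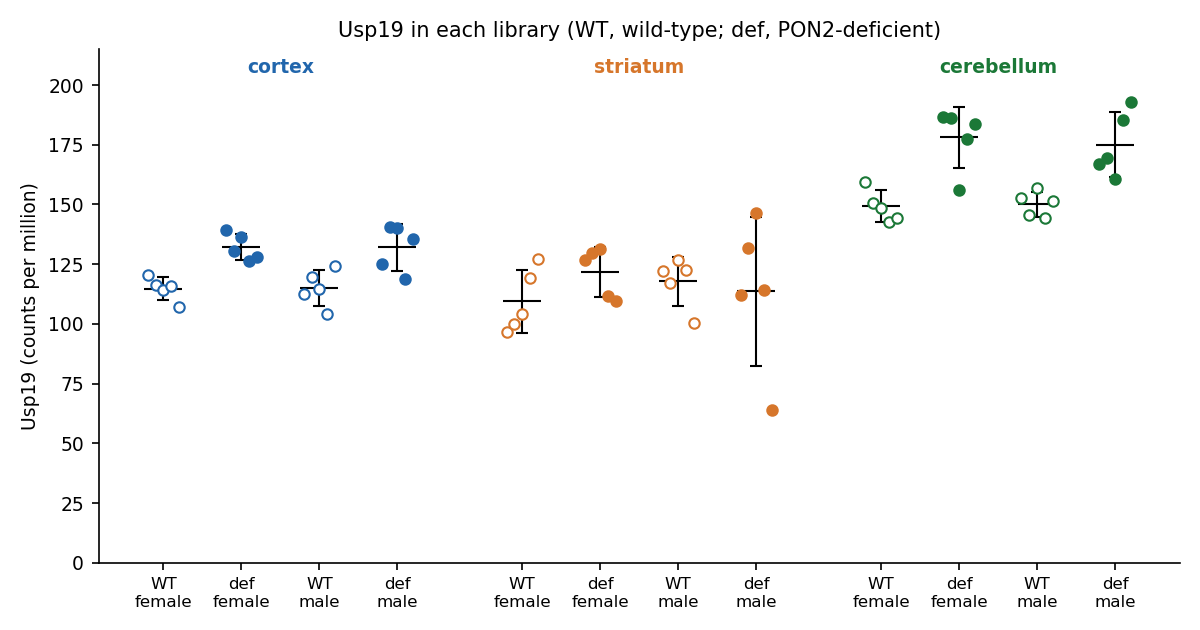
Usp19 in CPM (y axis, from 0) in each of the 60 libraries, by region, genotype and sex. Points are libraries (open, wild-type; filled, PON2-deficient), and bars give the mean and SD of 5 libraries; PON2-deficient libraries sit higher in cortex and cerebellum, and 1 striatal library lies at 63.8.

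The genotype change of Usp19 did not pass a test of difference between regions or sexes. The change in striatum minus that in cortex was -0.15 with a standard error of 0.10 (edgeR adjusted p = 0.853), that in cerebellum minus cortex 0.04 ± 0.10 (adjusted p = 1), and that in cerebellum minus striatum 0.19 ± 0.10 (adjusted p = 0.849). Among all members none passed in these 3 comparisons, where 0%, 0.0147% and 0.00981% of 20387 genes did. DESeq2 and limma on the deposited values called 0 members as well, and 2, 3 and 2 members had an unadjusted p under 0.05. These are 4.35%, 6.52% and 4.35% of members, beside 6.3%, 4.15% and 5.97% of all genes. The change in males minus that in females was -0.01 in cortex, -0.21 in striatum and -0.03 in cerebellum for Usp19, with standard errors of 0.08, 0.21 and 0.08. In that test of the sexes 0 members were called by edgeR, DESeq2 or limma in any region, against 0% of all genes by edgeR in each. DESeq2 called 52, 6 and 1 genes of the whole table (cortex, striatum, cerebellum). In that order 5, 1 and 2 members had an unadjusted p under 0.05, which is 10.9%, 2.17% and 4.35% of members beside 9.56%, 4.31% and 4.73% of all genes.

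No gene around Usp19 passed the test between genotypes. Within 100 kb lie 16 other genes of the counts, among them Usp4, a relative of Usp11 and Usp15, and Lamb2. The fitted change of Lamb2 was 0.07 ± 0.08 in cortex, -0.04 ± 0.15 in striatum and -0.07 ± 0.09 in cerebellum (log2 ± standard error). The lowest adjusted p of edgeR's test among the neighbours was 0.266, and 0, 2 and 1 of them had an unadjusted p under 0.05 in cortex, striatum and cerebellum.

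Markers of choroid plexus and ependyma also differed in level between these libraries. All 12 choroid plexus markers and all 8 ependymal markers had lower fitted values in PON2-deficient cortex and cerebellum, none passing the test. The choroid markers summed to 216 to 909 CPM in wild-type cortex, against 201 to 905 CPM without PON2, and to 924 to 3570 against 147 to 4180 CPM in cerebellum. The ependymal sums were 14.9 to 22.5 against 10.4 to 17.2 CPM in cortex and 24.4 to 36.1 against 17.9 to 39.2 CPM in cerebellum. With the mean of the choroid markers as a covariate, the Usp19 change was 0.20 in cortex (adjusted p = 0.0919) and 0.21 in cerebellum (adjusted p = 0.0641). In striatum all 8 ependymal markers had higher fitted values without PON2 (median 0.40 on the log2 scale), while 6 choroid markers were higher and 6 lower. The part of the ependymal markers was not tested.

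Among the 46 members, 31 had a higher fitted level in PON2-deficient cortex, 28 in striatum and 31 in cerebellum. These are 67.4%, 60.9% and 67.4% of members, beside 49.8%, 53.9% and 50.4% of all genes tested. Members are long genes, with a median exon length of 7640 bases against 3733 over all matched genes. The change of log2 values per doubling of transcript length had a higher median in PON2-deficient than in wild-type libraries. The medians were 0.0121 against 0.0026 in cortex, 0.0136 against 0.00428 in striatum and 0.00883 against 0.00189 in cerebellum, with overlapping ranges. The part of length in the shares of members was not tested. In all 3 regions 17 members were higher and 4 lower, a count for which no share of all genes was computed. The median member change was small: 0.02 in each of cortex and striatum and 0.03 in cerebellum on the log2 scale, beside medians of -0.00056, 0.01 and 0.0009 over all genes tested. In cortex 0 members were called by edgeR, beside 0.0316% of all genes, while 7 members had an unadjusted p under 0.05, all of them higher. In striatum 0 members were called, beside 0.0105% of all genes, with 3 at an unadjusted p under 0.05. In cerebellum 1 member was called, Usp19 itself, beside 0.0321% of all genes; that contrast chose it. There 12 members had an unadjusted p under 0.05, 10 higher and 2 lower. An unadjusted p under 0.05 was found for 11.4%, 4.94% and 11.1% of all genes in cortex, striatum and cerebellum, and for 15.2%, 6.52% and 26.1% of members. DESeq2 called 2 members in cortex (Usp19 and Usp28), 0 in striatum and 2 in cerebellum (Usp19 and Usp21), and limma 0, 0 and 1. Over all genes DESeq2 called 232, 6 and 242 in that order, and limma 4, 3 and 18.

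**Figure D2:**
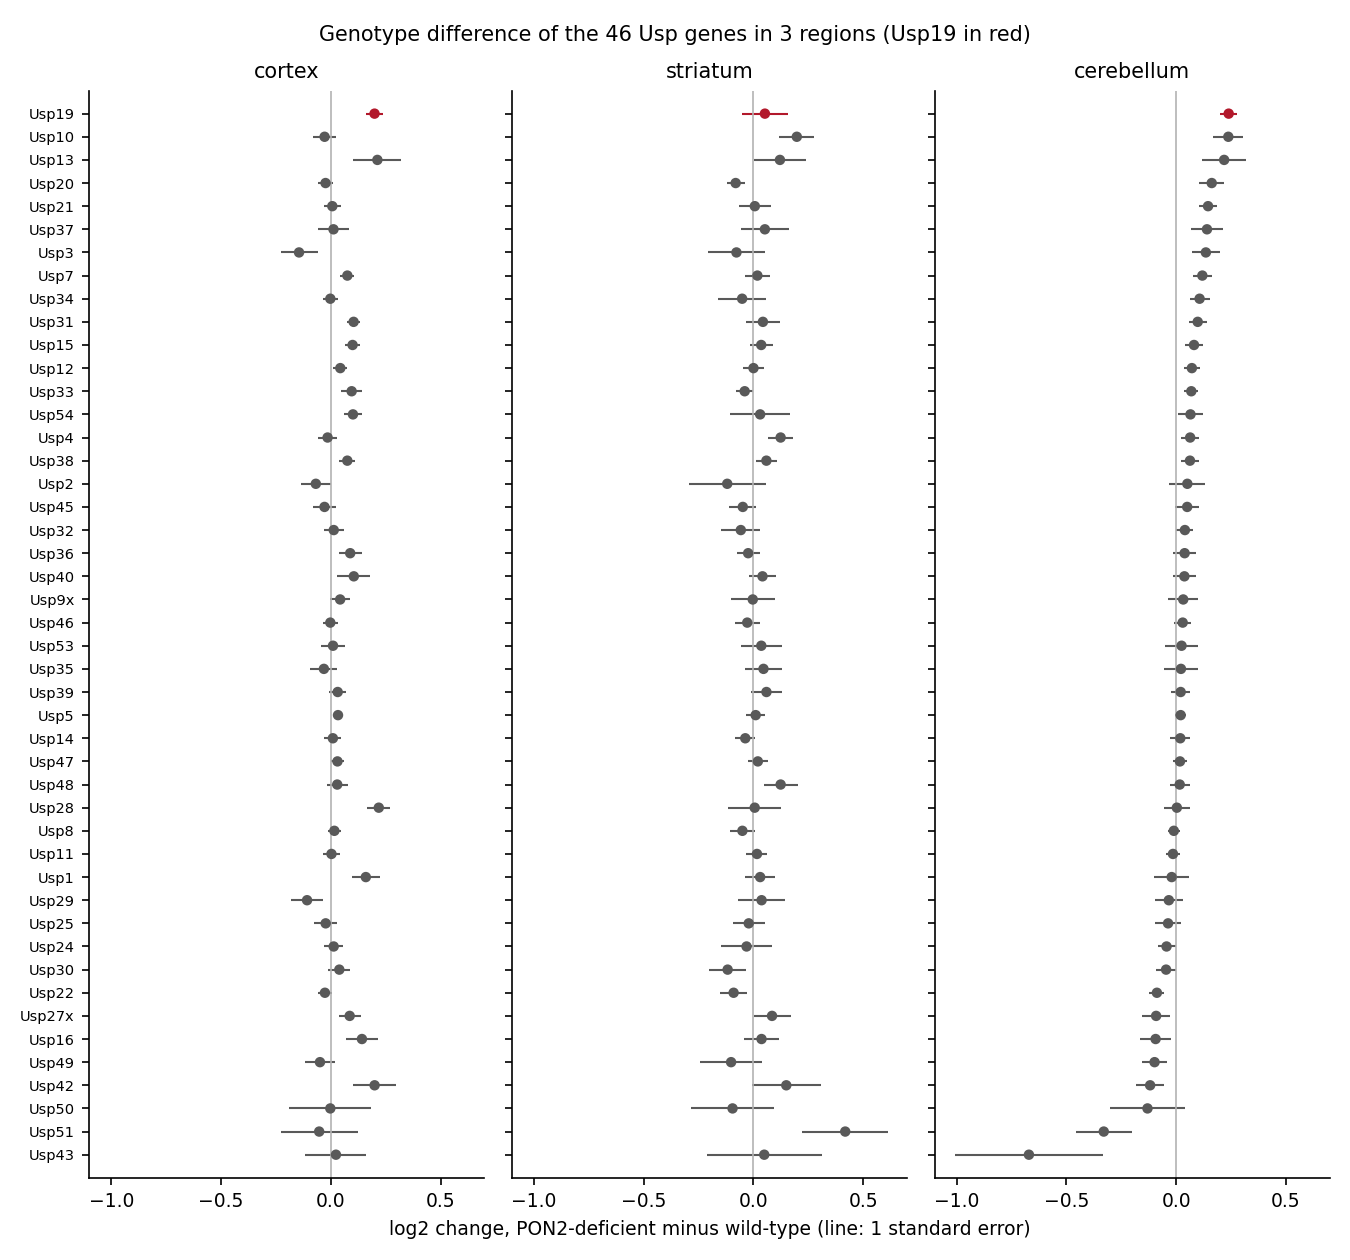
Log2 change between genotypes (x axis, PON2-deficient minus wild-type) of each member (y axis, ordered by the cerebellar change) in 3 regions. Points are edgeR estimates from 20 libraries a region and lines 1 standard error; Usp19, in red, stands at 0.20, 0.05 and 0.24.

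After Usp19, the smallest p in cortex belonged to Usp28, a nuclear USP known for stabilising Myc and for its link to DNA damage signalling. Usp28 ran from 23.2 to 30.2 CPM (median 27.5) in 10 wild-type cortices and from 27.9 to 36.0 CPM (median 32.0) in 10 PON2-deficient cortices. The ranges overlapped, with 7 PON2-deficient libraries above the highest wild-type one. Its log2 change was 0.22 with a standard error of 0.05 (edgeR adjusted p = 0.0942). In striatum and cerebellum the Usp28 change was 0.01 and 0.0034. Usp31 came next in cortex, at 82.6 to 109.6 CPM (median 97.8) in wild-type libraries and 96.8 to 113 CPM (median 103) without PON2. Its change was 0.10 with a standard error of 0.03 (adjusted p = 0.181), and in cerebellum it was 0.10 with a standard error of 0.04. Usp7, which stabilises the p53 ligase Mdm2, was 0.08 ± 0.03 higher in cortex and 0.12 ± 0.04 higher in cerebellum (log2 ± standard error). Its edgeR adjusted p was 0.367 and 0.275. In cortex the change of Usp7 was -0.01 in females and 0.16 in males, and that of Usp31 0.05 and 0.15. No member passed the test of that difference between the sexes. Usp19, Usp31 and Usp7 were the 3 members higher at an unadjusted p under 0.05 in both of these regions, a set picked out after the values were seen.

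Usp10, a binding partner of the stress granule protein G3bp1, had the smallest p of the family in striatum and the third in cerebellum. In striatum it ran from 29.6 to 50.5 CPM (median 40.8) in wild-type and from 39.6 to 53.4 CPM (median 46.2) in PON2-deficient libraries. The ranges overlapped, and the change was 0.20 with a standard error of 0.08 (edgeR adjusted p = 0.928). In cerebellum Usp10 ran from 47.4 to 67.5 CPM (median 57.8) and from 53.0 to 79.2 CPM (median 66.5), a change of 0.24 with a standard error of 0.07 (adjusted p = 0.171). In cortex the Usp10 change was -0.03. Usp21, known as a histone H2A deubiquitinase, ran from 33.6 to 42.1 CPM (median 38.5) in wild-type and from 38.4 to 46.6 CPM (median 41.4) in PON2-deficient cerebellum. Its change was 0.15 with a standard error of 0.04 (adjusted p = 0.166).

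Usp51 and Usp4 had the next smallest p in striatum. Usp51 is a low gene, at 0.480 to 0.951 CPM in wild-type striatum and 0.554 to 1.40 CPM without PON2, and its log2 change was 0.42 ± 0.19 (standard error; adjusted p = 0.994). In cerebellum the Usp51 values had the opposite order, with 1.42 ± 0.273 CPM in the wild-type and 1.13 ± 0.191 CPM in the PON2-deficient group (SD, n = 10 each) and a change of -0.33 ± 0.13 (standard error; adjusted p = 0.332). The Usp4 estimate was 0.12 ± 0.06 in striatum (adjusted p = 0.995), and 0.08 without the library that stood apart. The lowest fitted change of the family in cerebellum was that of Usp43, at -0.67 ± 0.34 (adjusted p = 0.478), where its level was only 0.0693 to 0.697 CPM over 20 libraries.

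Taken by sex, edgeR called 0 members between genotypes in cortex females (0.00527% of all genes called, 4 members at an unadjusted p under 0.05) and cortex males (0.148%, 9 members). It called 0 in striatum females (0.00527%, 0 members) and striatum males (0.00527%, 3 members), and 0 in cerebellum females (0.00534%, 4 members) and cerebellum males (0.016%, 10 members). DESeq2 called 3 members in cortex males, 1 in cerebellum females, 2 in cerebellum males and 0 in the other 3; limma called 0 in all 6. Over all genes DESeq2 called 388 in cortex males, 8 in cerebellum females and 182 in cerebellum males. The share of all genes at an unadjusted p under 0.05 was 6.6% in females and 14% in males of cortex, 4.08% and 5.96% in striatum, and 5.16% and 10.6% in cerebellum. In cortex Usp19 had the smallest p of the family in both sexes.

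Between males and females edgeR called 1 member in cortex and DESeq2 called 2, among 69 genes that DESeq2 called there. With the replicate block, 1 fit over all libraries, the length slope or the choroid plexus mean, edgeR called 0 members. Usp31 in cortex ran from 99.04 to 113 CPM (median 108) in 10 females and from 82.6 to 104 CPM (median 96.6) in 10 males of both genotypes. The ranges overlapped between 99.04 and 104 CPM. The log2 difference, males minus females, was -0.17 with a standard error of 0.03 (edgeR adjusted p = 0.0452), 1 member beside 0.0896% of all genes. With 1 library left out at a time it passed in 6 of 20 fits. The same difference was -0.16 ± 0.08 in striatum and -0.08 ± 0.04 in cerebellum, neither called. In striatum and cerebellum 0 members were called by edgeR, DESeq2 or limma, beside 0.105% and 0.118% of all genes by edgeR. An unadjusted p under 0.05 was found for 12 members in cortex (3 higher and 9 lower in males), 5 in striatum and 1 in cerebellum. These are 26.1%, 10.9% and 2.17% of members, beside 10.5%, 7.82% and 7.24% of all genes. The X-linked members were not called in any region. Usp9x, a large USP of neuronal development with a Y-linked copy, differed by -0.08 ± 0.04 in cortex, -0.06 ± 0.10 in striatum and -0.04 ± 0.07 in cerebellum.

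All 46 members reached a mean of 1 CPM in at least 1 region and 44 did in every region. All 46 also passed the filter on low counts in every fit. Per kilobase of exon, which allows genes to be compared, Usp22 led the family at 41.9 ± 5.09 CPM per kb over 60 libraries (SD). Usp22 is the deubiquitinase of the SAGA coactivator and acts on histone H2B. With the longest transcript as the length instead, Usp5 ranked 1 and Usp22 2 in every region, in cortex at 57.5 and 48.5 CPM per kb. By exon length Usp5, which takes apart free ubiquitin chains, came next at 36.9 ± 4.61 CPM per kb. The X-linked Usp11 ranked 3 in cortex at 29.4 and in striatum at 35.1, but 11 in cerebellum at 14.9 CPM per kb. Usp7 followed at 20.2 ± 2.85 and Usp19 at 19.0 ± 3.66 CPM per kb. Over 60 libraries the spreads of Usp7, Usp19 and Usp2 (16.8 ± 3.57) overlap, as they do within cortex and within striatum. In cerebellum Usp2, at 17.1 ± 2.30, lay below Usp7 at 23.6 ± 1.83 and Usp19 at 23.1 ± 2.37 CPM per kb. Usp19 ranked 6 in cortex at 17.5 ± 1.56, 6 in striatum at 16.4 ± 2.49 and 4 in cerebellum at 23.1 ± 2.37 CPM per kb. By the longest transcript its rank in striatum was 8.

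At the low end stood Usp51 at 0.445 ± 0.148, Usp43 at 0.489 ± 0.500 and Usp50 at 0.559 ± 0.171 CPM per kb, whose spreads over all 3 regions overlap. Within regions they separate in part. In cortex Usp43 stood at 1.13 ± 0.300 and Usp51 at 0.398 ± 0.098 CPM per kb. In cerebellum Usp43 stood at 0.063 ± 0.036, below Usp51 at 0.577 ± 0.124 and Usp50 at 0.490 ± 0.129 CPM per kb. Usp53, a tight junction protein, followed at 1.64 ± 0.430 and Usp40 at 1.85 ± 0.334 CPM per kb. Usp22, Usp27x and Usp51 are close copies, as are Usp12 and Usp46, and Usp4, Usp11 and Usp15. How the authors' estimates shared reads among them is not given in the sources used here, so the split within each set is uncertain. Usp50 overlaps Usp8 on the opposite strand over 50202 bases, Usp49 lies over Gm20517 on the same strand, and 17 members in all overlap another gene of the counts. Whether strand was used in counting is not given in the sources used here.

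**Figure D3:**
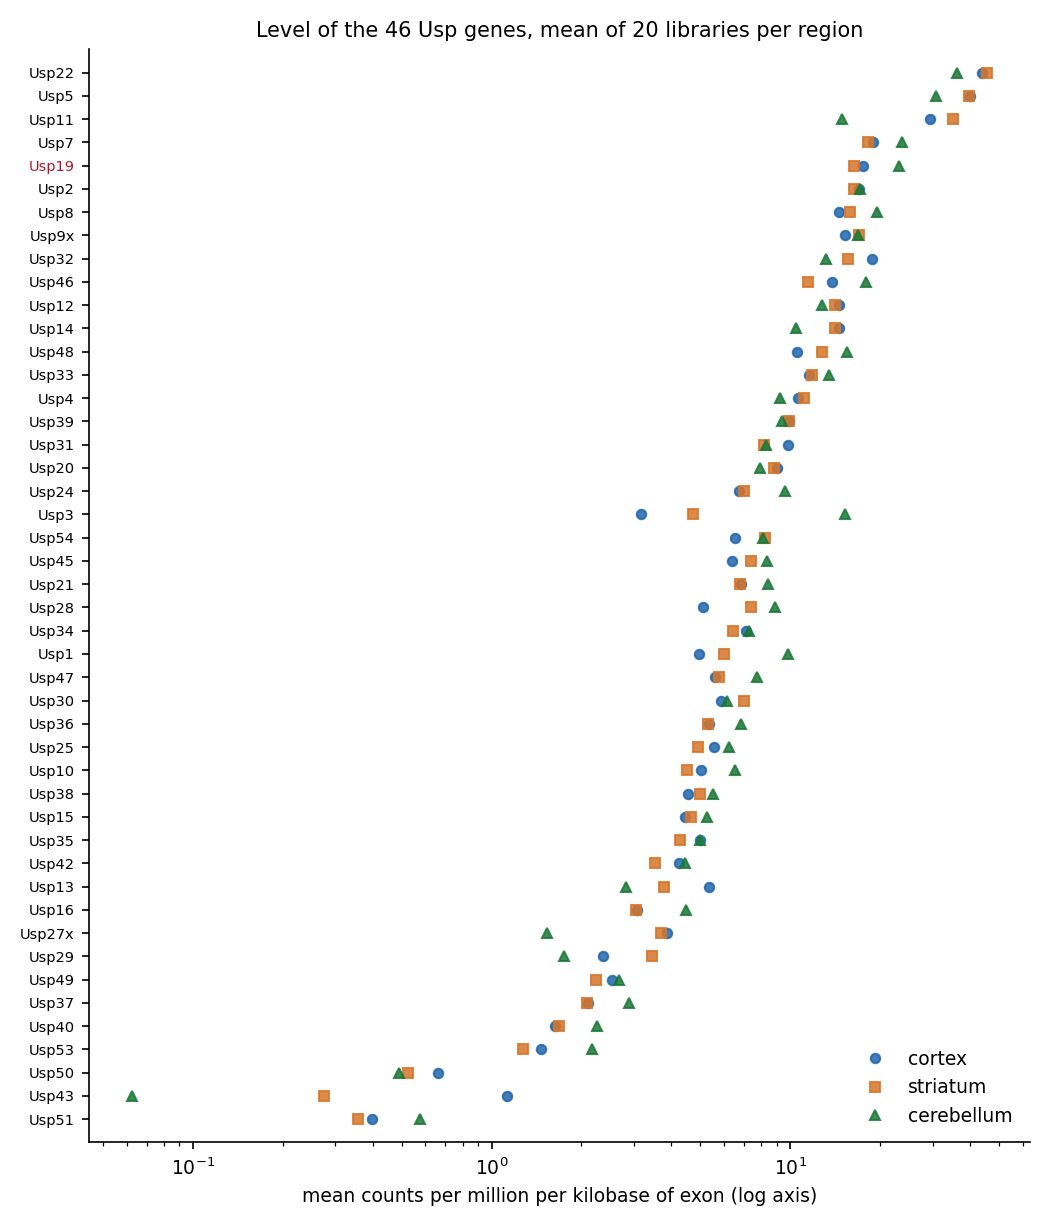
Mean level of each member (y axis, ordered by the mean over 60 libraries) in CPM per kilobase of exon (x axis, log scale) in cortex, striatum and cerebellum, 20 libraries each. Usp3 and Usp1 sit far to the right in cerebellum, and Usp11, Usp27x and Usp43 far to the left.

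More members differed between regions than between genotypes. After a log2 difference, ± gives the standard error, and after a level the SD. Between striatum and cortex 12 members were higher and 13 lower in striatum, beside 28.8% and 28.2% of 20387 genes. Between cerebellum and cortex 25 were higher and 15 lower in cerebellum, beside 40.1% and 39.5% of genes. Between cerebellum and striatum 27 were higher and 14 lower, beside 39.7% and 40.2%. The median member was 0.19 higher in cerebellum than in cortex and 0.18 higher than in striatum (log2), beside 0.0029 and -0.0028 over all genes. Cerebellum was the highest region for 28 members, cortex for 10 and striatum for 8. Usp2, a USP whose level follows the daily clock, was the 1 member called in none of the 3 comparisons. Cortex is the shared reference of the first and second comparison, so those are not independent of each other.

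Usp19 followed the family's more common order. It stood at 163 ± 16.7 CPM in cerebellum, 124 ± 10.98 in cortex and 116 ± 17.6 in striatum (SD, n = 20 each). All 20 cerebellar libraries, at 143 CPM and above, lay above all 20 cortical libraries, at 141 CPM and below. The log2 difference was 0.40 ± 0.05 against cortex (edgeR adjusted p = 2.78e-10) and 0.49 ± 0.05 against striatum (adjusted p = 4.47e-13). Both genotypes enter these differences, so they include the PON2-deficient cerebellar libraries that chose Usp19. In wild-type libraries alone Usp19 ran from 143 to 159.6 CPM in cerebellum, 104 to 124 in cortex and 96.6 to 127 in striatum. That wild-type difference was not tested. Striatum and cortex did not differ beyond the test, at -0.09 ± 0.05 (adjusted p = 0.109), although without striatum PON2-deficient male 3 the difference was -0.12 (adjusted p = 0.0279). Without striatum PON2-deficient male 5 it was -0.05 (adjusted p = 0.21), and on the deposited log2 values -0.04.

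Of the USPs that act on chromatin, Usp3, which removes ubiquitin from histones H2A and H2B, differed most between regions. It ran from 86.8 to 123 CPM (median 103) in cerebellum, from 17.8 to 41.9 (median 32.8) in striatum and from 16.7 to 27.4 (median 21.9) in cortex. Cerebellum did not overlap the other regions. The log2 difference was 2.27 ± 0.07 against cortex and 1.69 ± 0.07 against striatum (edgeR adjusted p = 3.11e-34 and 8.32e-29), and 0.57 ± 0.07 between striatum and cortex. Usp27x, which shares the SAGA adaptors with Usp22, went down in cerebellum. It ran from 5.64 to 7.73 CPM there, from 14.3 to 18.6 in cortex and from 13.1 to 20.4 in striatum. Cerebellum lay below both other regions, whose ranges overlapped. The log2 difference was -1.35 ± 0.05 against cortex and -1.28 ± 0.05 against striatum (adjusted p = 3.2e-32 and 3.37e-31). Usp51, the third of these copies, was 0.69 ± 0.12 higher in cerebellum than in striatum, at 1.27 ± 0.274 against 0.789 ± 0.265 CPM.

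Usp1, which acts on Fancd2 and on the replication clamp together with its partner Wdr48, ran from 28.7 to 50.3 CPM in cerebellum, 18.6 to 26.3 in striatum and 15.4 to 23.6 in cortex. Its cerebellar libraries lay above all others, with a log2 difference of 0.99 ± 0.05 against cortex and 0.72 ± 0.05 against striatum (edgeR adjusted p = 1.33e-24 and 8.21e-19). Usp28 rose by 0.80 ± 0.06 in cerebellum and by 0.53 ± 0.06 in striatum against cortex, from 29.9 ± 3.24 CPM in cortex. Usp48, a nuclear USP, rose by 0.57 ± 0.04 in cerebellum and 0.28 ± 0.04 in striatum against cortex, from 102 ± 8.07 CPM.

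Usp11 fell in cerebellum. It ran from 65.7 to 77.6 CPM there, 126 to 152 in cortex and 149 to 186 in striatum. The cerebellar libraries lay below all others, with a log2 difference of -0.98 ± 0.03 against cortex and -1.23 ± 0.03 against striatum (edgeR adjusted p = 1.01e-36 and 1.41e-41). Its relative Usp4 stood at 79.8 CPM in cerebellum, 91.9 in cortex and 95.7 in striatum. Usp13, the closest relative of Usp5, fell by 0.92 ± 0.08 in cerebellum and by 0.51 ± 0.08 in striatum against cortex, where it stood at 40.7 ± 8.52 CPM.

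Usp46, a partner of Wdr48 that acts on glutamate receptors, ran from 122 to 152 CPM in cerebellum, 101 to 118 in cortex and 74.6 to 99.8 in striatum. The 3 ranges did not overlap. The log2 difference was 0.65 ± 0.03 in cerebellum against striatum and -0.28 ± 0.03 in striatum against cortex (edgeR adjusted p = 1.94e-26 and 2.51e-11). Usp14, which works on the proteasome, was 0.43 ± 0.03 lower in cerebellum than in striatum, at 87.5 ± 6.00 against 118 ± 6.50 CPM. Usp32, found on Golgi and endosomes, was 0.51 ± 0.04 lower in cerebellum than in cortex, at 101 ± 5.63 against 145 ± 12.8 CPM. Usp53 was 0.57 ± 0.05 higher in cerebellum than in cortex and 0.77 ± 0.05 higher than in striatum.

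The remaining members that moved most were these. Usp29, an imprinted gene next to Peg3, was highest in striatum at 62.5 ± 10.5 CPM, against 42.5 ± 5.58 in cortex and 31.6 ± 3.05 in cerebellum. It was 0.56 ± 0.06 higher in striatum than in cortex and 0.98 ± 0.06 lower in cerebellum than in striatum. Usp43 was highest in cortex, at 3.28 to 8.42 CPM in cortex, 0.422 to 2.67 in striatum and 0.0693 to 0.697 in cerebellum. Its log2 difference was -4.19 ± 0.19 in cerebellum and -2.03 ± 0.16 in striatum against cortex (edgeR adjusted p = 1.04e-27 and 8.99e-17). Usp54 was 0.33 ± 0.07 higher in striatum than in cortex, Usp31 0.27 ± 0.04 lower, and Usp50 0.33 ± 0.13 lower at only 1.63 ± 0.440 against 2.06 ± 0.591 CPM.

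**Figure D4:**
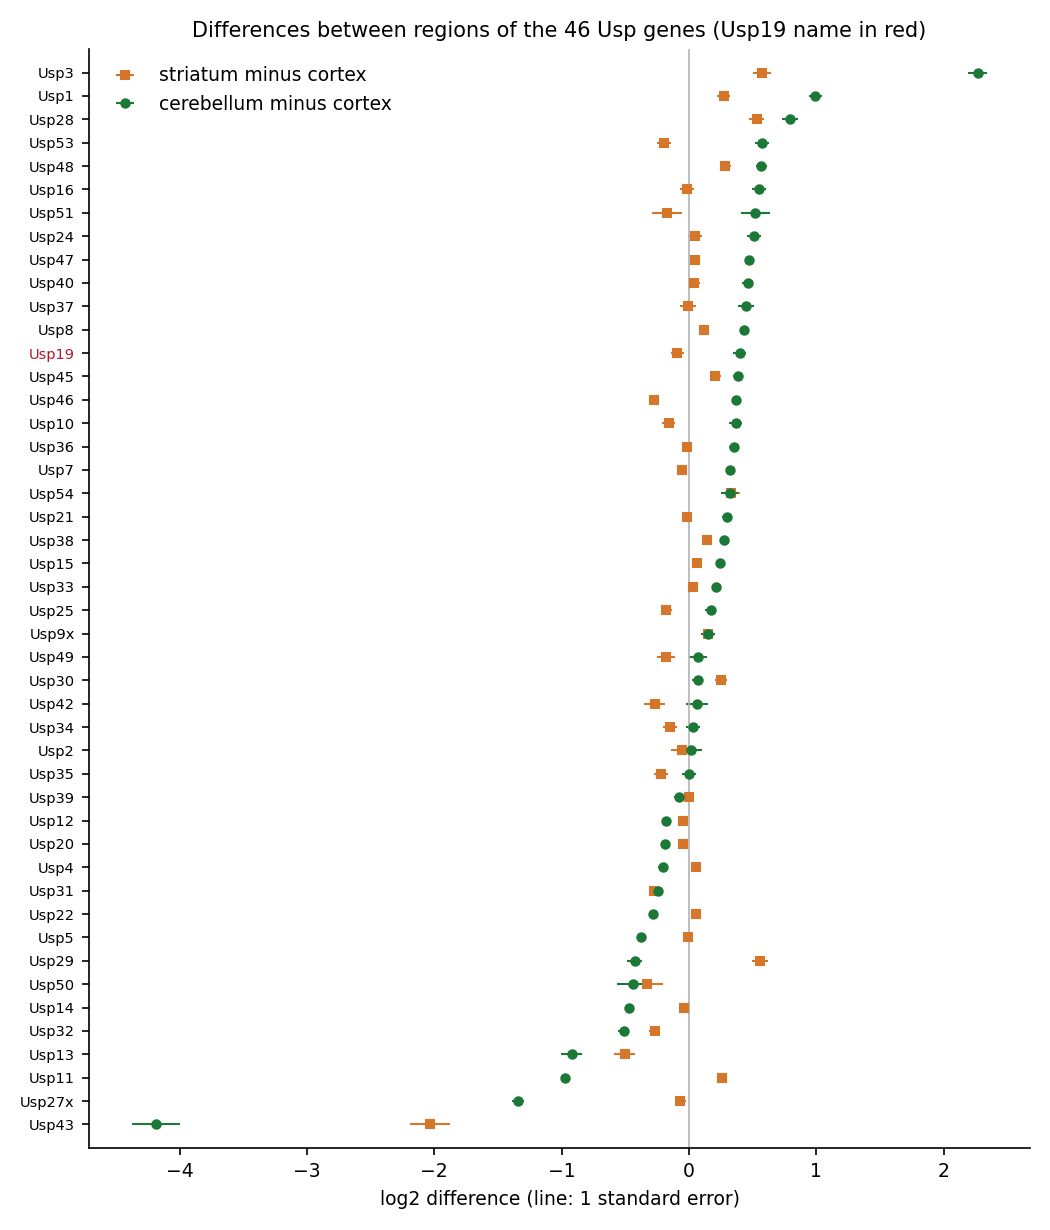
Log2 difference against cortex (x axis) of each member (y axis, ordered by the cerebellar value), for striatum (squares) and cerebellum (circles), with lines of 1 standard error from a fit over 60 libraries. Usp3 stands at 2.27 and Usp43 at -4.19 in cerebellum, and Usp19 at 0.40.

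Across libraries, with the mean of each of the 12 groups taken out, the members most like Usp19 were Usp49 (Pearson r = 0.74), Usp54 (0.72) and Usp24 (0.71), over 60 libraries. The least like were Usp2 (-0.48), Usp5 (-0.43) and Usp39 (-0.42), a splicing factor that lacks the catalytic residues. These are descriptions, and the points share libraries, depth and the fate of long transcripts in each library. Without striatum PON2-deficient male 5 the values were 0.49, 0.47 and 0.41 for the first 3 and -0.16, -0.06 and -0.16 for Usp2, Usp5 and Usp39. Within the 20 cortical libraries, r with Usp19 was -0.21 for Usp49, -0.24 for Usp54 and -0.22 for Usp24, so the likeness was not found there. Within the 20 striatal libraries it was 0.89, 0.87 and 0.88 for the same 3 members, and 0.72, 0.68 and 0.70 in the 19 without male 5. Within the 20 cerebellar libraries it was 0.60 for Usp49, 0.14 for Usp54 and -0.04 for Usp24. The median over the other members was 0.17 with 60 libraries and 0.09 with 59, beside -0.00046 and 0.00057 over all genes. Of 20386 genes the 5 most like Usp19 were Leng8, Gon4l, L1cam, Entr1 and Kmt2d, at 0.82 to 0.83, and at 0.64 to 0.67 without that library.

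**Figure D5:**
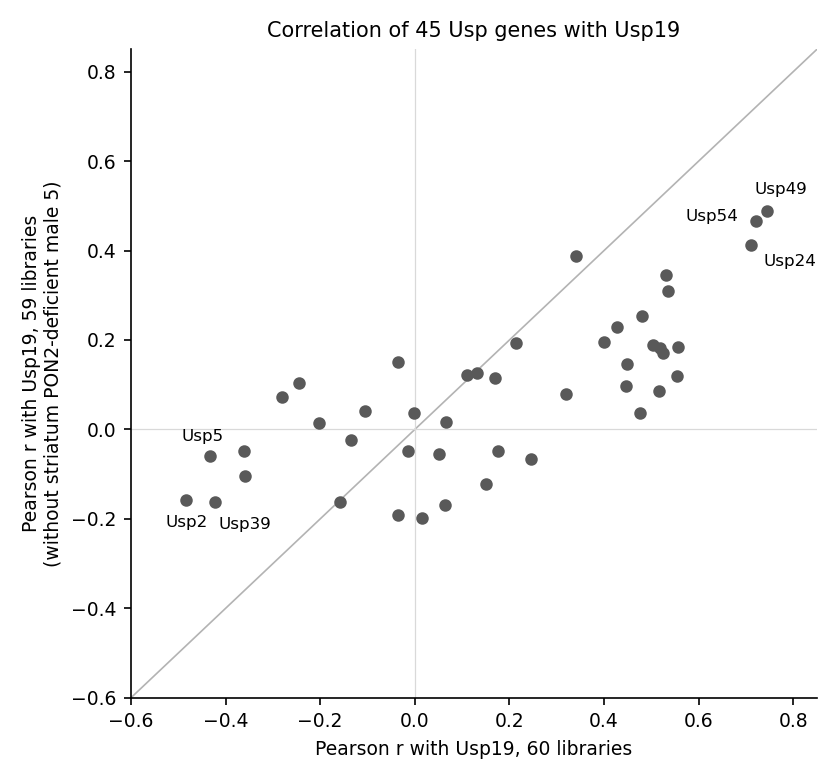
Pearson r of each of the 45 other members with Usp19 over 60 libraries (x axis) and over 59 libraries without striatum PON2-deficient male 5 (y axis), after group means were taken out. Most points with a high r on the x axis lie below the diagonal, and Usp49 moves from 0.74 to 0.49.

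Other genes of the ubiquitin system showed no called change between genotypes. Of the OTU deubiquitinases, 15 were tested and 11 were higher in PON2-deficient cortex, 9 in striatum and 8 in cerebellum, with 0 called by edgeR in each. Otud5 had the smallest p of that list in cortex, at 0.16 ± 0.04 (adjusted p = 0.102). Of the genes listed under the UCH, Josephin, JAMM, MINDY and ZUP1 families, 23 were tested and 0 called. Their medians were -0.02, 0.01 and -0.0013 in cortex, striatum and cerebellum. That list goes by family and was not limited to genes shown to cut ubiquitin. Of genes grouped with the USP family under other names (Cyld, Pan2 and Uspl1) and of 18 partners and cofactors of USPs, 0 were called. The nearest was Atxn7, a SAGA partner of Usp22, at 0.28 ± 0.06 in cortex (adjusted p = 0.055). Among 27 genes of endoplasmic reticulum disposal and reported partners of Usp19, 0 were called in any region. Siah2, a ubiquitin ligase reported to bind Usp19, stood at 0.18 ± 0.07 in cortex, 0.12 ± 0.07 in striatum and 0.19 ± 0.06 in cerebellum (adjusted p = 0.345, 0.995 and 0.214). Syvn1, the ligase of that disposal route, stood at 0.08 ± 0.04 in cortex and 0.09 ± 0.04 in cerebellum. Of 7 ubiquitin and E1 genes 0 were called, and Uba6 in striatum stood at 0.26 ± 0.09 (adjusted p = 0.819).

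Between cerebellum and cortex, where 40.1% of all genes were called higher and 39.5% lower, these lists also held calls. Of the 15 OTU enzymes 6 were higher and 6 lower in cerebellum than in cortex, led by Zranb1 at 0.996 ± 0.05. Of the 23 genes of the UCH, Josephin, JAMM, MINDY and ZUP1 list 6 were higher and 12 lower in cerebellum. Among them were Mindy1 at 1.88 ± 0.04 and Uchl1, the abundant neuronal ubiquitin hydrolase, at -2.22 ± 0.08. Cyld, a USP known for its part in NF-kB signalling and at synapses, was 1.07 ± 0.05 higher in striatum than in cortex (edgeR adjusted p = 1.77e-27).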

How the data were processed

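RNA of 60 mouse libraries (paired reads of 150 nt) was analysed. The authors deposited estimated counts per gene, log2 CPM and observation weights, a score with no fixed unit; Salmon, edgeR and limma are named per the submitters' processing notes. No genome build is given in the sources used here. Deposited log2 CPM equal voom values of the counts with TMM sizes (largest deviation 5.33e-14). Every column matched a sample (0 others). Gene IDs were matched to GENCODE M21 (99.9%). Expected counts were rounded, filtered with filterByExpr, TMM-scaled and tested in edgeR 4.0.16 (R 4.3.3, quasi-likelihood F test, Benjamini-Hochberg over all genes of a comparison, called at an adjusted p under 0.05); a standard error is the log2 change over the root of F. Genotype and sex were fitted per region (20 libraries), region and genotype-by-region over 60. Log2 CPM used a prior count of 2. Alternatives were DESeq2 1.42.0, limma 3.58.1 on the deposited values, other scaling or no filter, a replicate block, 1 fit over all libraries, a transcript length slope, a choroid plexus mean and leaving out each library. Scripts were tested on simulated data. The gene members, gene lists and naming rule (Usp19, members called, else the 3 smallest p; the 5 largest rises and falls between regions; the 5 highest and lowest levels; the 3 most and least like Usp19) were chosen with earlier results of these data known.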

Additional observations from a re-analysis of the deposited data

How the results depend on the processing

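Of 493 comparisons with an alternative setting, left-out libraries aside, 462 kept direction and side of the threshold or, for counts and ranks, stayed within 1.5 times. Members called between striatum and cortex were 30 on the deposited values and 29 under the length slope, against 25. Over all genes the calls there were 12452 and 12402, against 11629. The striatal rank of Usp19 was 8 by the longest transcript, against 6. DESeq2 called 2 members between genotypes in cortex, 3 in cortex males, 2 in cerebellum, 1 in cerebellum females, 2 in cerebellum males, and 2 between the sexes in cortex, with 232 genes called in cortex and 242 in cerebellum. Under the replicate block 1 member was called in cortex (Usp19, edgeR adjusted p = 0.0412), among 24 genes, and 0 between the sexes in cortex. Of same-numbered pairs, 12 of 30 between genotypes and 31 of 60 between regions correlated above 0.1 (median r 0.0854 and 0.102). Differently numbered pairs were not compared, so these values cannot decide whether numbers pair the libraries. The main fits took libraries as separate, and whether regions share a mouse was not tested. Under the length slope 1 was called in cortex (Usp19, edgeR adjusted p = 0.025) and 0 between the sexes. Over all genes that fit called 162 in cortex, against 6 in the main fit. With 1 fit over all libraries 0 were called in cortex, where Usp19 stood at 0.20 (edgeR adjusted p = 0.408). The choroid plexus mean also left 0 called in cortex (Usp19 adjusted p = 0.0919). With the choroid plexus mean, or with 1 fit over all libraries, 0 were called in cerebellum (Usp19 adjusted p = 0.0641 and 0.191) and 0 between the sexes (Usp31 adjusted p = 0.107 and 0.375). The cause was not tested.

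With each library left out, the counts ran from 0 to 1 for genotype in cortex, in cortex males and in cerebellum, and from 0 to 2 between the sexes in cortex. The cerebellar change of Usp19 stayed between 0.22 and 0.26, and its adjusted p ran from 0.00339 to 0.0674. The call ended when PON2-deficient male 5, PON2-deficient female 1, wild-type males 1, 2 or 5, or wild-type females 2 or 4 were dropped. In cortex Usp19 was called without PON2-deficient female 5 (edgeR adjusted p = 0.0442, with 26 genes called) or male 4 (0.0405, with 10 genes called). In the other 18 of 20 cortical fits it was not called, with an edgeR adjusted p of up to 0.12. In cortex males 1 member was called without wild-type male 4, in a fit that called 150 genes, against 28 in the main fit. The striatal change of Usp19 ran from -0.002173, reversed, without PON2-deficient male 3 to 0.1273 without male 5. Usp31 between the sexes kept its call in 6 of 20 fits, those without wild-type females 3 or 5, wild-type males 1 or 4, or PON2-deficient female 5 or male 5 (adjusted p 0.0144 to 0.0957). The fall of Usp50 in striatum lost its call without cortex wild-type male 1 (adjusted p = 0.0559) or 4 (0.0651).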
